A study of Mus musculus with 1829 samples.

Results

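The wells compared held cells sorted as T cells with insulin tetramers from the lymph nodes of NOD mice. Wells in which the chemokine receptor gene Ccr7 was detected were set against wells in which it was not. A well entered when at least 20 of the 96 assays were detected, meaning a pass call and a threshold cycle (Ct) under 24. This left 200 of the 1829 wells of the series, from 7 mice, of which 62 had no Ccr7 signal and the rest had Ccr7 detected. The wells were chosen by the number of assays detected and the classes by the measured Ccr7 value, so Ccr7 is not tested between the classes, and only its share of wells is compared between tetramers and ages.

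All cells came from NOD/ShiLtJ animals with no treatment named in the labels, and mice of this strain become diabetic through an autoimmune attack on the islets. CD4+ T cells were stained with an I-Ag7 tetramer, a class II MHC reagent, that presented insulin B chain residues 12-20 or 13-21, and were sorted singly. The qualifying lymph node wells were 46 of 12-20 cells at 7 weeks (3 mice), 11 at 8 weeks (1 mouse) and 29 at 13 weeks (3 mice), and 60 of 13-21 cells at 7 weeks and 54 at 13 weeks from the same 6 mice. Transcripts were amplified and read by quantitative PCR on microfluidic chips, and the labels do not say which lymph node was taken. Each qualifying mouse lay on a chip of its own, with both tetramers of each 7- and 13-week mouse on the same chip, so chip and mouse cannot be told apart.

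CCR7 is the receptor for the chemokines CCL19 and CCL21 and brings naive and central memory T cells into lymph nodes and keeps them in the T cell zone. T cells that have been activated commonly lose it and gain receptors for inflamed tissue such as CXCR3. The interleukin-7 receptor, encoded by Il7r, is carried with CCR7 by resting T cells and supports their survival.

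Of the 367 lymph node wells from these ages, 200 (54.5%) reached 20 assays, and they held a median of 34 detected assays (range 20 to 54). The shallower wells held a median of 9, and Ccr7 was detected in 4 of them (2.40%). Of 9 mice sampled, the 7-week mice M10 and M11 had 0 of 62 wells at that depth and are absent from every value below. No lymph node well shared its 96 Ct values with another. At the edge of the depth rule, 1 of 9 wells with 20 to 22 assays had Ccr7 detected, against 3 of 7 wells with 17 to 19. Cd4 was detected in 94.9% of Ccr7-detected and 90.3% of Ccr7-negative wells, and Cd8a and the cytokine gene Il2 in none of either (upper limits of 2.17% and 4.84% for a count of 0, taken as 3 counts of the total, from counting error alone). Of the markers of B cells, myeloid cells, NK cells and gamma-delta T cells listed for the comparison, none was on the panel.

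The level of a transcript is given as log2Ex, which is 24 minus Ct, with 0 where the assay was not detected. The Ccr7 log2Ex in the detected wells ranged from 0.927 to 11.8 with a median of 8.62, and 1 well lay under 4. All 62 negative wells had no Ct for Ccr7 at all, so no well was placed in that class by a failed call or a late Ct. A well with no signal is not shown to lack the transcript.

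The share of wells with Ccr7 detected varied between mice and tetramers. Among 12-20 wells, Ccr7 was detected in 14 of 17, 18 of 20 and 7 of 9 wells of the 7-week mice M2, M3 and M7 and in 8 of 11 of the 8-week mouse M3. At 13 weeks the 12-20 counts were 8 of 10, 7 of 8 and 3 of 11 for M2, M3 and M4, so M4 at 27.3% (95% exact binomial interval 6.02 to 61%) lay below every other mouse. Among 13-21 wells, the counts were 13 of 16, 17 of 23 and 16 of 21 at 7 weeks and 6 of 13, 6 of 18 and 15 of 23 at 13 weeks, in the same order of mice.

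Between tetramers, the share averaged 74.2% ± 23.4 for 12-20 and 62.7% ± 18.9 for 13-21 (SD, n = 6 mice), a difference of 11.5 percentage points that was smaller than its spread. It was higher for 12-20 in 5 of 6 mice (exact two-sided permutation p = 0.406, adjusted over 2 comparisons 0.406). With 1 mouse left out, the difference ran from 2.94 points without the 13-week M3 (exact permutation p = 0.8125) to 21.4 without the 13-week M4. The latter had an exact permutation p of 0.0625, the smallest that 5 mice allow (adjusted 0.125). Between ages, the share averaged 56.6% ± 9.05 at 13 weeks and 80.2% ± 2.83 at 7 weeks (SD, n = 3 mice each). The 13-week mice all lay below the 7-week mice, a difference of -23.7 points. The exact permutation p was 0.1, the smallest that 3 against 3 mice allow (adjusted 0.2). Among 12-20 wells alone, the 13-week M2 (80%) and M3 (87.5%) lay within the 7-week range of 77.8 to 90%. Ccr7-negative wells without Cd3e numbered 2, 6 and 4 in the 13-week M2, M3 and M4 and 2, 1 and 0 in the 7-week M2, M3 and M7. Their part in the age difference was not tested. Where Ccr7 was detected, its mean log2Ex per mouse and tetramer ranged only from 8.05 to 9.24.

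**Figure D1:**
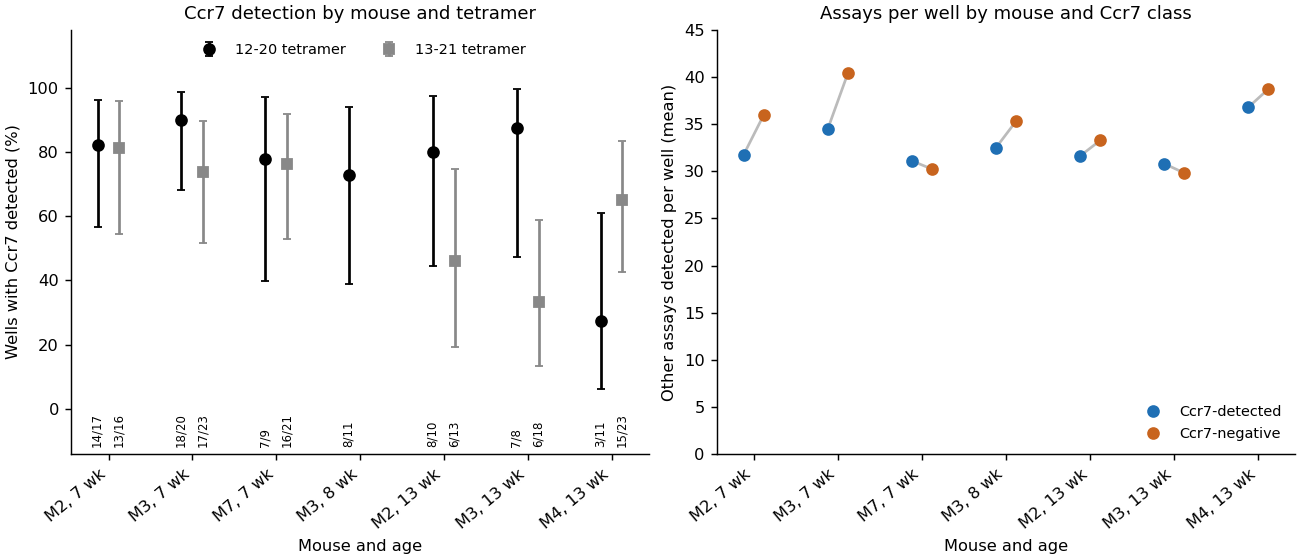
The left panel plots the percentage of wells with Ccr7 detected for each mouse and tetramer with 95% exact binomial intervals, and the right panel plots the mean number of other assays detected per well in each Ccr7 class for each mouse. The lowest share was 27.3% (12-20, 13-week M4), and Ccr7-negative wells held more other assays than Ccr7-detected wells in 5 of 7 mice.

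The depth of the classes was checked first. Ccr7-detected wells held 32.7 ± 2.16 of the other 95 assays and Ccr7-negative wells 34.8 ± 4.01 (SD over 7 mice). The difference was -2.11 ± 2.54 assays (exact two-sided permutation p = 0.0781, n = 7 mice), with 5 of 7 mice below 0. It ranged from -5.95 in the 7-week mouse M3 to 1.0 in the 13-week mouse M3.

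Across the other assays, Ccr7-detected wells had more Il7r, Cd3e, Bcl2 and Nr4a1, and Ccr7-negative wells more Cxcr3, Icos, Ctla4, Pdcd1 and Ifngr1. Differences were taken within a chip and tetramer, averaged per mouse and tested with limma over 7 mice. The 8 wells of the 12-20 cells of the 13-week mouse M3, 7 detected and 1 negative, were left out for want of a second negative well. Of 72 assays tested, 9 (12.5%) passed at a Benjamini-Hochberg adjusted p under 0.05, 4 (5.56%) higher and 5 (6.94%) lower in Ccr7-detected wells, and 28 had an unadjusted p under 0.05. The median difference over the 72 assays was -0.31 log2Ex, and 11 of 72 (15.3%) had the same sign in 7 of 7 mice. A difference in mean log2Ex joins how often an assay was detected with its level where detected, so it is not a fold change of a cell's transcripts.

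Il7r encodes the alpha chain of the interleukin-7 receptor. In Ccr7-detected wells its mean log2Ex was 4.82, 5.14 and 5.64 in the 7-week mice M2, M3 and M7, 7.30 in the 8-week mouse M3 and 5.76, 3.88 and 6.80 in the 13-week mice M2, M3 and M4. In Ccr7-negative wells of the same mice, in the same order, it was 1.22, 2.92 and 3.72, then 0.00, then 0.00, 1.23 and 2.80. The lowest mouse of the detected class lay above the highest mouse of the negative class, so the classes did not overlap. The difference was 3.92 log2Ex (SE 0.64, 95% interval 2.54 to 5.31, limma adjusted p = 0.00125), positive in 7 of 7 mice. Il7r was detected in 69.6% of Ccr7-detected against 18 of 62 Ccr7-negative wells, and its median log2Ex where detected was 8.06 against 7.19. Il7r was already named as a marker when the comparison was proposed, so this is not independent evidence for it.

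Bcl2 encodes an inhibitor of cell death. Its mean log2Ex per mouse in Ccr7-detected wells ran from 4.25 through a median of 5.38 to 5.83, and in Ccr7-negative wells from 1.70 through 3.41 to 4.21. The classes did not overlap, although the 7-week mouse M2 had almost equal means of 4.25 and 4.21. The difference was 1.98 (SE 0.49, limma adjusted p = 0.0190), with 88.4% of Ccr7-detected and 72.6% of Ccr7-negative wells positive. The call was lost without the 7-week mouse M3 or the 8-week mouse M3 (limma adjusted p = 0.0727 and 0.0546). The assay was also positive in 64.1% of wells under 20 assays.

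Cd3e encodes a subunit of the CD3 complex through which the T cell receptor signals. Its mean log2Ex per mouse ran from 9.88 through 11.57 to 12.41 in Ccr7-detected and from 5.55 through 8.66 to 11.16 in Ccr7-negative wells, so the classes overlapped, but each mouse was higher in its detected wells. The difference was 2.57 (SE 0.54, limma adjusted p = 0.00581). It was detected in all but 3 Ccr7-detected wells against 46 of 62 Ccr7-negative wells, and its median where detected was nearly the same at 11.98 and 12.21. The classes thus differed in how many wells had Cd3e more than in its level where detected.

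Nr4a1, an early response gene induced by T cell receptor signalling, was detected in 36.2% of Ccr7-detected against 9.68% of Ccr7-negative wells. Its mean log2Ex per mouse ran from 0 through 2.19 to 4.53 in the detected class and from 0 through 0 to 1.37 in the negative class. The classes overlapped, and 6 mice were higher in the detected class while the 13-week mouse M3 had 0 in both. The difference was 1.72 (SE 0.51, limma adjusted p = 0.0381), and the call was lost on leaving out any 1 mouse other than the 13-week M3 and M4 (highest limma adjusted p = 0.105).

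Cxcr3 encodes a receptor for interferon-induced chemokines that is carried by activated and Th1 cells. Its mean log2Ex in Ccr7-detected wells was 1.2, 2.28 and 0.28 in the 7-week mice M2, M3 and M7, 0.00 in the 8-week mouse M3 and 0.74, 0.00 and 3.95 in the 13-week mice M2, M3 and M4. In Ccr7-negative wells it was 5.52, 8.01 and 1.72, then 7.16, then 5.94, 2.70 and 4.08, in the same order. Every mouse was lower in its detected wells, but the 13-week mouse M4 differed little and its detected wells overlapped the lowest negative means. The difference was -3.81 (SE 0.75, 95% interval -5.43 to -2.19, limma adjusted p = 0.00485). Cxcr3 was detected in 13.8% of Ccr7-detected against 48.4% of Ccr7-negative wells, at a median level where detected of 9.77 and 9.75.

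Icos encodes an inducible costimulatory receptor of activated T cells. Its mean log2Ex per mouse ran from 0.64 through 1.68 to 3.6 in Ccr7-detected and from 2.99 through 5.30 to 6.37 in Ccr7-negative wells. The ranges overlapped at their ends, while all 7 mice were lower in the detected class. The difference was -3.06 (SE 0.49, limma adjusted p = 0.00125), with 24.6% against 62.9% of wells positive and medians where detected of 8.01 and 8.16.

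Ctla4 and Pdcd1 encode inhibitory receptors induced by activation. Ctla4 means ran from 0 through 1.45 to 2.48 in the detected class and from 1.28 through 4.82 to 5.75 in the negative class, a difference of -2.48 (SE 0.63, limma adjusted p = 0.0190). In the 7-week mouse M7 and the 13-week mouse M3 the Ctla4 means of both classes were nearly equal, so the difference came from the other 5 mice. Pdcd1 means ran from 0 through 1.22 to 1.38 and from 1.46 through 2.69 to 4.90, without overlap, a difference of -1.78 (SE 0.50, limma adjusted p = 0.0332). The Ctla4 call was lost without the 7-week M2 or M3, the 8-week M3 or the 13-week M2 (highest limma adjusted p = 0.0720), and the Pdcd1 call without any 1 of those or the 13-week M4 (highest 0.101). Ctla4 was positive in 20.3% of Ccr7-detected against 46.8% of Ccr7-negative wells and Pdcd1 in 13.8% against 33.9%.

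Ifngr1, a chain of the interferon gamma receptor, had means from 1.5 through 2.95 to 5.20 in the detected class and from 3.53 through 5.22 to 5.94 in the negative class. The classes overlapped, and the 13-week mouse M3 had nearly equal means of 5.20 and 5.22. The difference was -1.76 (SE 0.52, limma adjusted p = 0.0381), with 38.4% against 51.6% of wells positive. The call was lost on leaving out any 1 mouse other than the 13-week M3 (highest limma adjusted p = 0.118).

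**Figure D2:**
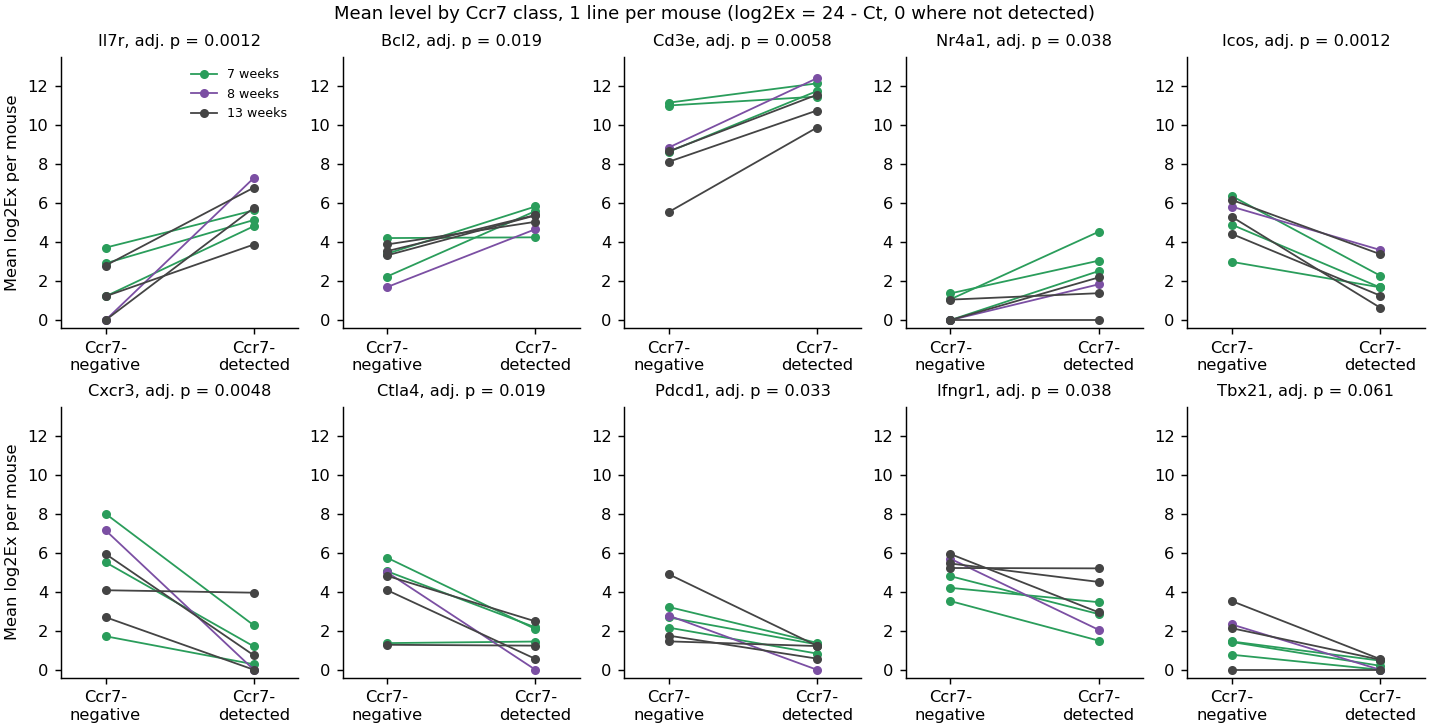
Each panel plots the mean log2Ex of 1 gene in Ccr7-negative and Ccr7-detected wells, with 1 line per mouse coloured by age, and gives the limma adjusted p. Il7r and Bcl2 lines all rise toward the detected class, Icos, Cxcr3 and Pdcd1 lines all fall, and Tbx21, which did not pass, has 6 lines that fall and 1 at 0 in both classes.

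Ordered by function, the lists of panel genes differed as follows, beside 4 higher, 5 lower and 63 not passing of 72 overall. Both measured members of the naive and survival list, Il7r and Bcl2, were higher (median difference 2.95), and both inhibitory receptors were lower (-2.13). In the follicular helper list, Icos and Pdcd1 were lower and Bcl6, the transcription factor of that lineage, and the cytokine gene Il21 did not pass (-0.64 and -1.09; median -1.43). Among 6 activation genes, Nr4a1 was higher, Icos lower and 4 did not pass (median -1.24). By sign alone, Nr4a1 lay above 0 and the other 5 below. The lists overlap, Icos and Pdcd1 standing in more than 1.

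Of 8 Th1 and effector genes only Cxcr3 passed, and the list median was -1.04. Tbx21, the Th1 transcription factor, was positive in 6 Ccr7-detected wells (4.35%) against 11 Ccr7-negative wells (17.7%; difference -1.41, limma adjusted p = 0.0607). Ifng, its cytokine target, differed by -1.16 (limma adjusted p = 0.131). Tnf differed by 0.42 (limma adjusted p = 0.556). These differences did not pass the adjusted threshold, although Tbx21 was lower in the detected class in 6 of 7 mice and 0 in both classes of the other.

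Of 4 regulatory genes only Ctla4 passed (median -1.46). Foxp3, the regulatory T cell transcription factor, was positive in 11.6% of Ccr7-detected wells and 18 of 62 Ccr7-negative wells, a difference of -1.10 (limma adjusted p = 0.201). Il10, which encodes an anti-inflammatory cytokine, was positive in 0 Ccr7-detected wells (which allows up to 2.17%, counting error only) and in 7 of 62 negative wells, a difference of -1.52 (limma adjusted p = 0.104). Il2ra, a chain of the interleukin-2 receptor, differed by -1.40 (0.0836).

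Of 8 chemokine receptors and ligands besides Ccr7, only Cxcr3 passed (median -0.79). Ccr4 was positive in 6.52% of Ccr7-detected against 24.2% of Ccr7-negative wells (difference -2.0, limma adjusted p = 0.0607), and Ccr6 in 97.8% against 83.9% (1.29, 0.106). Ccr2 differed by 0.32 (limma adjusted p = 0.751) and Cxcr4 by -0.31 (0.774). Ccr2 and Ccr6 were also positive in 82% and 80.2% of wells under 20 assays, so their detection separates cells poorly on this panel.

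Among the remaining lists, 0 of 14 interferon-stimulated genes passed (median 0.23), 0 of 12 signalling genes (0.17), 0 of 4 of the tumour necrosis factor family (-0.06), 0 of 2 Th2 genes (0.49) and 0 of 1 Th17 gene, Ccr6. Il7r was the only one of 6 interleukin receptors to pass (median -0.36). Of 3 T cell identity genes, Cd3e passed, and Cd4 (-0.61, limma adjusted p = 0.549) and the kinase gene Zap70 (0.55, 0.589) did not. The activation-linked genes Cd28 (-1.63, limma adjusted p = 0.0607), Cd44 (-1.08, 0.145) and Irf4 (-0.65, 0.401) did not pass. The reference gene Gapdh was detected in all 200 wells and differed by 0.20 (limma adjusted p = 0.751).

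**Figure D3:**
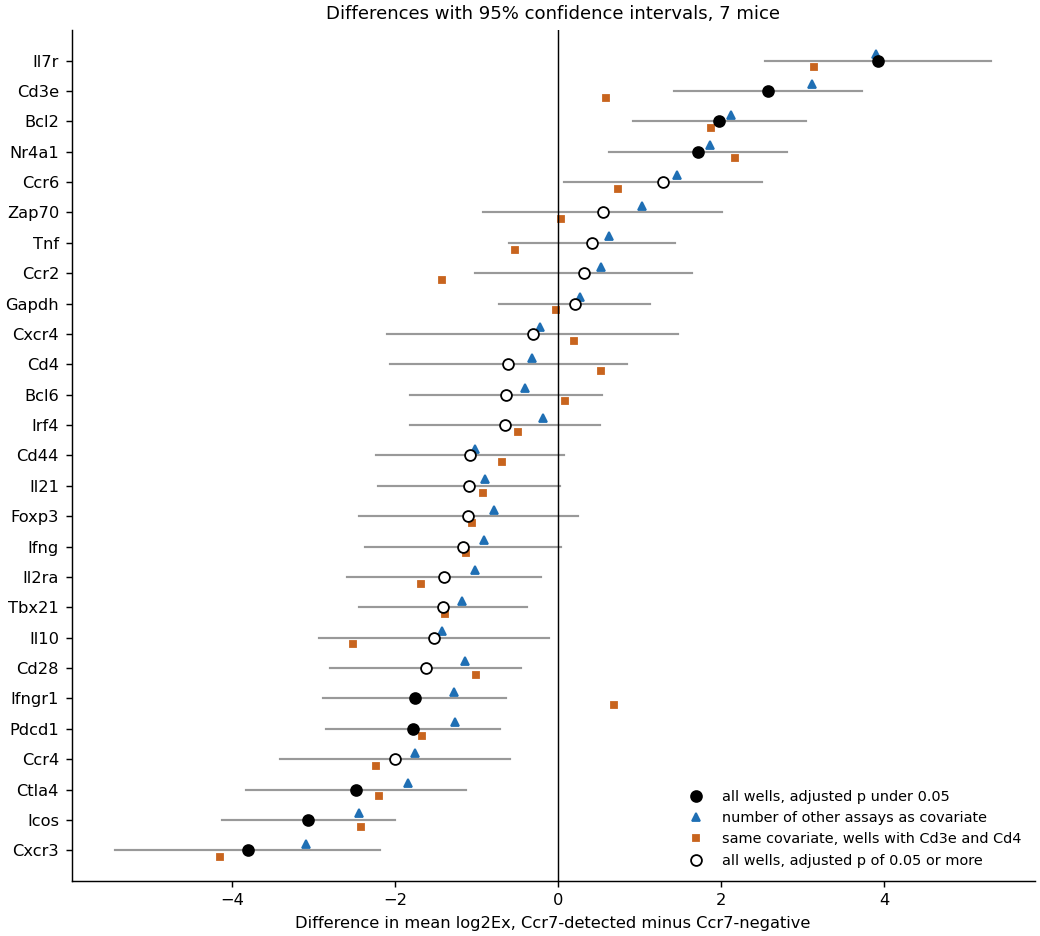
The difference in mean log2Ex between Ccr7-detected and Ccr7-negative wells is plotted for each tested gene named here as a circle with its 95% interval over 7 mice, filled where the limma adjusted p is under 0.05. Triangles give the difference with the number of other assays as a covariate and squares the same in wells with Cd3e and Cd4, and Il7r stays on the right and Cxcr3 and Icos on the left in all of them.

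Because the classes held somewhat different numbers of assays, the contrast was repeated with depth accounted for. A covariate for the number of other assays was added after the values were seen. Its slope for each assay was fitted over wells within class, chip and tetramer and taken off every well before limma. The number left out Ccr7 alone, so it counted the tested assay, and limma did not carry the error of the slope. With this covariate, 9 of 72 assays passed (12.5%), 6 higher (8.33%) and 3 lower (4.17%). Il7r then differed by 3.9 (limma adjusted p = 0.00127), Cxcr3 by -3.09 (0.00535) and Icos by -2.44 (0.00336). Ctla4 differed by -1.85 (0.0362), while Pdcd1 (-1.26, 0.0851) and Ifngr1 (-1.28, 0.0927) no longer passed. With each well centred on its mean, 10 of 72 passed (13.9%), 6 higher (8.33%) and 4 lower (5.56%).

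Pairing each negative well with a detected well at most 3 assays apart left 39 pairs, and 0 of 74 assays passed in limma (0.0%), with 4 at an unadjusted p under 0.05. In these pairs Il7r differed by 3.02 (SE 1.83, limma adjusted p = 0.556), Bcl2 by 2.42 (SE 0.82, 0.524) and Nr4a1 by 2.0 (SE 0.79, 0.524). Icos differed by -0.97 (SE 0.64, limma adjusted p = 0.615), Cxcr3 by -1.17 (SE 1.53, 0.764) and Pdcd1 by -0.07 (SE 1.03, 0.986). Cd3e differed by 1.6 (SE 0.60, limma adjusted p = 0.524) in the pairs. The 3 lower genes named were closer to 0 than over all wells, and no call was made in either direction.

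The Cd3e difference led to a split of the wells that was chosen after its values were seen. Of the 62 Ccr7-negative wells, 16 had no Cd3e, against 3 of the Ccr7-detected wells. The 16 came from 6 mice, 6 of them from the 13-week mouse M3 and 4 from the 13-week mouse M4, and 15 of them had Cd4. They held a median of 24.5 assays, against 40 in the 46 negative wells with Cd3e and 34 in the detected wells with it. Median Gapdh log2Ex was 12.31, 13.46 and 13.60 in these sets.

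The transcripts of the negative wells without Cd3e were counted. Cd86 and Cd80, ligands for CD28 and CTLA4 that are typical of antigen-presenting cells, were positive in 13 and 6 of the 16, while Cd40, a receptor also typical of such cells, was positive in 1. Icam1, an adhesion molecule, was positive in 14, the transcription factor gene Zeb2 in 11 and the chemokine receptor gene Ccr1 in 8. At least 3 of these 5 genes were positive in 14 of the 16 wells, against 2 of all wells of both classes with Cd3e. The 5 were picked because they were frequent in these wells, so this count is a description and supports nothing. Zap70, Ctla4, Pdcd1, Tbx21 and Foxp3 were positive in 0 of 16 (which allows up to 18.8%), Il7r and Cxcr3 in 1 each and Icos in 5. Ifngr1 was positive in 12 of 16, against 20 of 46 negative wells with Cd3e. What cells these wells held was not tested, since the panel carries no lineage marker for them beyond those named.

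Among wells with Cd3e, 46 were Ccr7-negative. Icos was positive in 34 of 46 Ccr7-negative (73.9%) against 25.2% of Ccr7-detected wells, and Cxcr3 in 29 of 46 (63%) against 14.1%. Ctla4 was positive in 63% against 20.7%, Pdcd1 in 45.7% against 14.1%, Tbx21 in 23.9% against 4.44% and Foxp3 in 39.1% against 11.9%. Il7r was positive in 17 of 46 Ccr7-negative wells (37%) against 69.6% of Ccr7-detected wells, and Nr4a1 in 10.9% against 37%, a gap close to that over all wells. Cd44 was positive in 28.3% against 5.19%, Il2ra in 43.5% against 13.3%, Cd28 in 93.5% against 75.6% and Irf4 in 28.3% against 16.3%. These shares carry no test, because wells of a mouse are not replicates. Cd86 was positive in 1 of the 46 and in 5.93% of the detected wells, and Zeb2 in 2 wells of each class.

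Limited to wells with both Cd3e and Cd4, with 39 negative wells in the contrast, 9 of 71 assays passed (12.7%), 1 higher (1.41%) and 8 lower (11.3%). Icos differed by -4.87 (limma adjusted p = 0.000313), Cxcr3 by -6.38 (0.00575), Ctla4 by -4.47 (0.00862), Pdcd1 by -3.67 (0.00544), Cd28 by -2.93 (0.00544) and Tbx21 by -2.07 (0.0401). Il7r was the 1 gene higher (3.31, limma adjusted p = 0.0113). Ifngr1 (-1.24, 0.351) and Bcl2 (1.64, 0.0785) did not pass.

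In these wells the depth gap was larger, the detected class holding 7.46 fewer assays (difference -7.46 ± 4.37, exact permutation p = 0.0156, the smallest 7 mice allow). With the number of other assays as a covariate there, 7 of 71 passed (9.86%), 5 higher (7.04%) and 2 lower (2.82%). Il7r (3.14, limma adjusted p = 0.0340), Nr4a1 (2.17, 0.0461), Cxcr3 (-4.15, 0.0340) and Icos (-2.42, 0.0461) were among them, and Ctla4 (-2.19, 0.0562) and Pdcd1 (-1.68, 0.0738) were not.

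**Figure D4:**
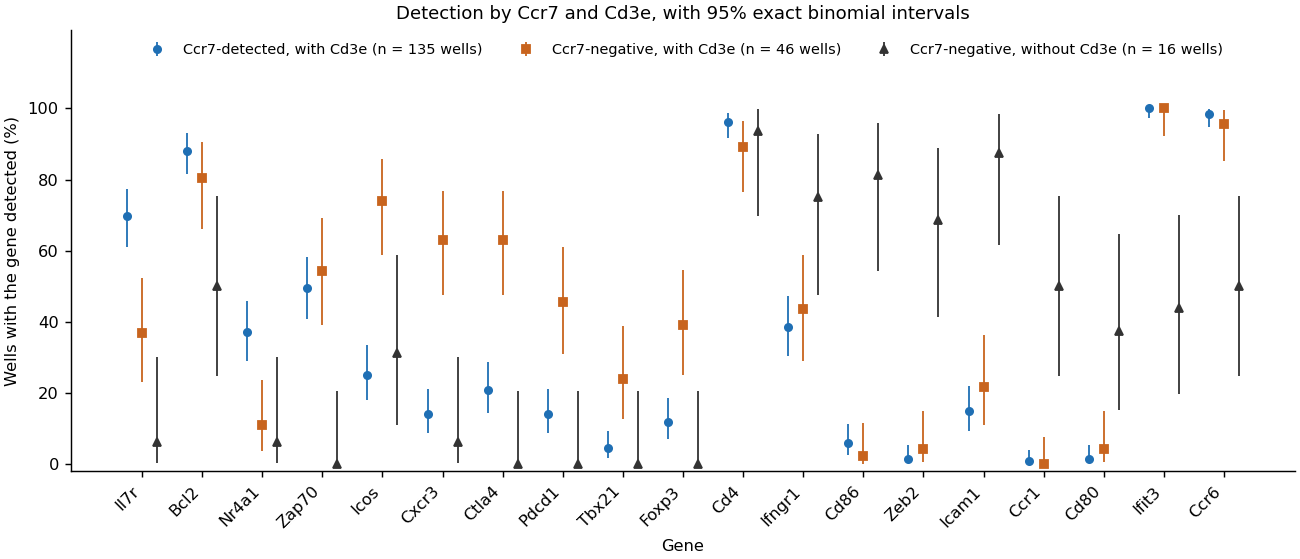
The percentage of wells with each gene detected is plotted with 95% exact binomial intervals for Ccr7-detected wells with Cd3e, Ccr7-negative wells with Cd3e (46) and Ccr7-negative wells without it (16). Icos and Cxcr3 are highest in negative wells with Cd3e (73.9% and 63%), and Cd86, Zeb2 and Ccr1 stand out in negative wells without it (13, 11 and 8 of 16).

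Within single wells, Il7r was set beside Icos and Cxcr3. In the Ccr7-detected class, 75 wells (54.3%) had Il7r without Icos or Cxcr3, and 16 (11.6%) had Icos or Cxcr3 without Il7r. In the Ccr7-negative class the counts were 5 of 62 (8.06%) and 32 of 62 (51.6%). Wells with Il7r and at least 1 of Icos and Cxcr3 numbered 21 and 13, and wells with none of the 3 genes 26 and 12. In the negative class, 13 of the 18 wells with Il7r also had Icos or Cxcr3. Its wells without Il7r were much the same (32 with and 12 without). In the detected class, Icos or Cxcr3 was rarer in wells with Il7r (21 of 96) than in wells without it (16 of 42). These counts carry no test, and part of them repeats the difference between the classes. None of Icos, Cxcr3, Ctla4, Pdcd1 and Tbx21 was positive in 90 Ccr7-detected wells (65.2%) and in 15 of 62 negative wells (24.2%).

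Ccr7-negative wells were also mixed in their lineage factors. Foxp3 without Bcl6 or Tbx21 was found in 12 of 62, Bcl6 alone in 14, Tbx21 alone in 3, more than 1 of them in 8 and none in 25. In the Ccr7-detected class, the shares were 7.25% for Foxp3 alone, 13% for Bcl6 alone, 1.45% for Tbx21 alone, 5.07% for more than 1 and 73.2% for none. Wells of 1 mouse are not independent, so these counts are given without a test.

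Within the Ccr7-detected wells, the Ccr7 level was set beside Il7r, Icos, Cxcr3 and Ctla4. Pooled over mice, the median Ccr7 log2Ex was 8.54 in wells with Il7r and 8.83 in wells without it, and 8.21 and 8.71 with and without Icos. It was 7.92 in the 19 wells with Cxcr3 and 8.72 in the others. Taken within mice, the mean difference (with minus without, ± SD) for Il7r was 0.11 ± 0.77, with 4 of 7 mice above 0. For Icos it was -0.28 ± 1.31 (3 of 6 mice above 0), for Cxcr3 -0.43 ± 0.34 (0 of 3) and for Ctla4 -0.71 ± 0.93 (2 of 5). These values fall within the range used for the split and are a description.

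The contrast was then set beside each tetramer. In 12-20 wells alone 0 of 75 assays passed in limma (0.0%), with 14 at an unadjusted p under 0.05, and in 13-21 wells alone 4 of 72 passed (5.56%). Il7r differed by 4.12 (SE 0.83) in 12-20 and 3.37 (SE 0.78) in 13-21 wells, Icos by -2.78 (SE 1.04) and -3.47 (SE 0.59) and Cxcr3 by -3.41 (SE 1.32) and -3.84 (SE 0.63). The test of the difference between tetramers passed for 0 of 72 assays in limma (0.0%), and for 0 at an unadjusted p under 0.05. The interval of that difference was -3.37 to 1.82 for Il7r and -3.64 to 2.84 for Cxcr3, from 6 mice of each tetramer. Not all were pairs: the 13-week M3 gave 13-21 wells alone and the 8-week M3 gave 12-20 wells alone.

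Between ages, the test of the difference between 13 and 7 weeks passed for 0 of 72 assays in limma (0.0%), with 5 at an unadjusted p under 0.05 (Ccr6, Cd86, Cxcl10, Ifit3 and Irf2). The interval was -0.77 to 3.89 for Il7r and -1.84 to 4.15 for Cxcr3, from 3 mice of each age.

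The same split was made in wells from other tissues of the series that met the depth rule, which the choice of lymph node wells did not use. Pooled over mice, Ccr7 was detected in 69% of the 200 lymph node wells, 35.8% of 215 islet wells and 22.5% of 89 blood wells. The blood wells were of 12-20 cells alone, and among 12-20 lymph node wells the share was 75.6% of 86. Median assays per well were 34 in lymph node, 45 in islets and 42 in blood. In islets (8 mice, 67 Ccr7-detected wells in the contrast) Il7r was higher in the detected class in 7 of 8 mice, with a mean difference of 2.81 ± 2.34 (SD). Icos and Cxcr3 differed there by 2.20 ± 4.48 and 2.08 ± 4.49, with 6 of 8 mice above 0, where all 7 lymph node mice were below 0. The 7-week islet mouse i3, with 2 wells of each class, carried much of this, and without it Icos differed by 0.70 ± 1.54 and Cxcr3 by 0.71 ± 2.46 (5 of 7 mice above 0), and Il7r by 2.74 ± 2.52.

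The test of the difference between islets and lymph node passed for 0 of 78 assays in limma (0.0%), with 18 at an unadjusted p under 0.05. Icos differed between the tissues by 5.26 (limma adjusted p = 0.0875), Cxcr3 by 5.89 (0.0875) and Tbx21 by 3.9 (0.0811). With each well centred 5 assays passed (6.41%), Cd28 (4.42), Cxcr3 (5.07), Icos (4.43), Ctla4 (4.24) and Tbx21 (3.10). The count turned on 2 islet mice. Without the 7-week islet mouse i3, 5 passed, Icos (3.76, limma adjusted p = 0.0086), Cd28 (4.09, 0.0128), Tbx21 (3.03, 0.0128), Cxcr3 (4.52, 0.0277) and Il21 (2.84, 0.0435), and without the 7-week islet mouse i2, 2 passed. In islets the detected class held 4.62 ± 11.6 more assays (exact permutation p = 0.266), and Cd3e differed by 4.3 ± 5.59, and the part of either in these values was not tested.

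In blood, 12-20 cells of 4 samples at 8 weeks (18 detected and 61 negative wells) differed between the classes in Tbx21 and Ifng. Tbx21 had mean log2Ex of 7.10, 7.23, 8.49 and 8.30 in the negative class, against 0, 0.31, 0 and 0 in the detected class. Ifng had means of 5.69, 6.73, 7.74 and 8.09 against 0 in all 4. The class means were apart in every sample, while single wells overlapped at 0. Between 56.3% and 81.8% of the negative wells of a sample had Ifng and between 81.3% and 94.7% had Tbx21, and 1 of 3 detected wells of 1 sample had Tbx21.

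Against the 12-20 lymph node wells (6 mice), 2 of 79 assays differed in limma (2.53%), Tbx21 by -6.13 (SE 0.83, adjusted p = 0.000973) and Ifng by -6.99 (SE 0.85, 0.000758). In lymph node the contrast was -1.57 ± 1.5 for Tbx21 and -0.07 ± 1.44 for Ifng (SD over 6 mice). The lymph node Ifng mean was 0 in both classes in the 13-week M2, the 7-week M7 and the 8-week M3. Tbx21 means in the lymph node negative class ran only from 0 to 4.65. This limits how far below 0 the lymph node contrast could lie. The blood samples were all from 8 weeks and the lymph node mice from 7, 8 and 13 weeks, so tissue and age were not separated. Cxcr3 differed by -9.55 ± 0.66 in blood and by -3.41 ± 4.00 in lymph node, and the test of that difference did not pass (-6.14, limma adjusted p = 0.135). The blood detected class held 7.33 ± 2.78 fewer assays than the negative class in all 4 samples (difference -7.33, exact permutation p = 0.125, the smallest 4 samples allow). Of the 4 blood samples, 1 came from the 8-week lymph node mouse M3 and lay on its chip. The test did not pair the blood and lymph node values of that mouse. The other blood samples were on chips without lymph node wells and were counted as separate mice.

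**Figure D5:**
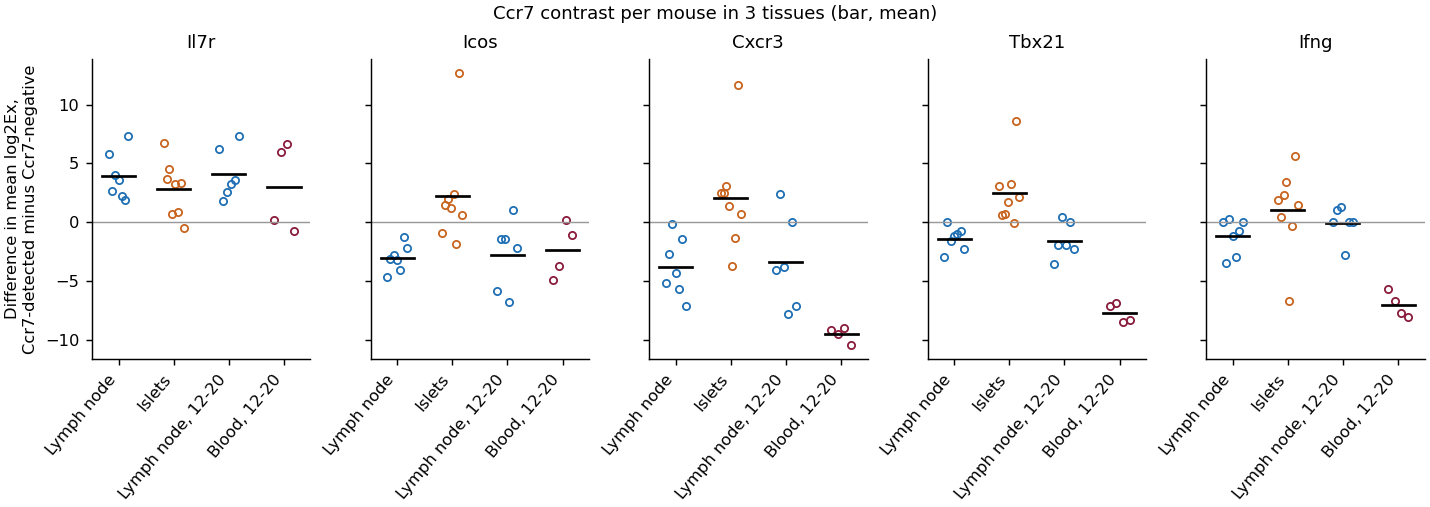
The difference in mean log2Ex between Ccr7-detected and Ccr7-negative wells is plotted for 5 genes, with 1 circle per mouse and a bar at the mean, in lymph node, islets, 12-20 lymph node and 12-20 blood wells. All 4 blood circles lie far below 0 for Cxcr3, Tbx21 and Ifng (means -9.55, -7.70 and -7.06), while the islet circles for Icos and Cxcr3 lie on both sides of 0.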

How the data were processed

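The files are exports of microfluidic single-cell RT-qPCR chips (EvaGreen dye, 96 assays). Per the file headers, the deposited values are Ct values with a pass or fail call, made with export software version 4.0.1 at a quality threshold of 0.65. Later steps by the authors have no version stated in these sources. Of 2112 wells on 22 chips, 1829 matched a labelled sample, and 283 others were not used. Of the 96 assay names, 94 were matched to a mouse symbol and 2 kept the name of the file.

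log2Ex was set to 24 minus Ct, and to 0 for a failed call or a Ct of 24 or more, which makes late signals equal to none. Each chip and tetramer with at least 2 wells of each Ccr7 class gave a difference of class means, and these were averaged per mouse. limma 3.58.1 (R 4.3.3) tested the mean of the 7 differences over the 72 assays detected in at least 5% of wells of either class, with Benjamini-Hochberg adjustment, leaving Ccr7 out. Thus the mouse is the replicate and wells are not. Mouse numbers were read from the sample titles. Numbers pair the classes because both come from the same mouse and chip, so each difference is within a mouse; the fit without that pairing is an alternative. Differences between tetramers or tissues used limma with the mouse as a random block, and those between ages and against blood no block. Depth and Ccr7 shares used exact permutation tests, and intervals of shares are exact binomial (Clopper-Pearson, 95%), covering counting error only, and a count of 0 is given the upper limit of 3 counts of its total. Python 3.11.15, pandas 2.3.3, scipy 1.17.1 and matplotlib 3.10.9 did the rest.

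Named genes were those with an adjusted p under 0.05, up to 15 in each direction, the 8 with the smallest p if fewer than 10 passed, and an index of 29 further or overlapping panel genes. The gene lists were naive and survival, activation, inhibitory receptors, Th1, Th2, Th17, regulatory, follicular helper, chemokine receptors and ligands, tumour necrosis factor family, interleukin receptors, interferon-stimulated, signalling, T cell identity and reference. Of the reference list 2 assays were tested, none passing (median difference -0.38). The genes Cd86, Cd80, Icam1, Zeb2, Ccr1, Cxcl10, Ifit3 and Irf2 lie outside the rule for named genes and were named after their values were seen. The values of 1 named gene are not reported here. The members, lists and tests were chosen with earlier results of these data known.

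On simulated data of the same layout, the contrast recovered 69.0% of assays shifted by 2 log2Ex and 100.0% of those shifted by 4, and called 0.6% of unshifted assays. The tetramer difference recovered 74.0% of those shifted by 4. These rates are for a set shift in log2Ex. They do not give the power to find a difference in how many wells had an assay. Cxcr3 and Cd3e differed mainly in that way, with nearly equal medians where detected. Alternatives changed the fewest wells, assays and Ct limit, the use of calls, scaling, matching, weights and pairing, and left out each mouse. Added after seeing the data were wells with Cd3e and Cd4, the number of other assays as a covariate, calls ignored for values alone, and leaving out mice in the comparisons between groups.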

Additional observations from a re-analysis of the deposited data

Results flagged for a closer look

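Of 31 values tested for an outlying mouse, 3 were far from the others, and chance alone picks about 1 in 20. The Il10 difference was -5.86 log2Ex in the 8-week mouse M3, which had 3 Ccr7-negative wells. In the other 6 mice, the Il10 mean of the Ccr7-negative wells ran from 0 to 1.60. The Gapdh difference was -0.98 in the 7-week mouse M2, whose class means were 13.61 and 14.59. The share of 12-20 wells with Ccr7 was 27.3% in the 13-week mouse M4, from 3 of 11 wells.

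The Ccr7 contrast differed between blood and lymph node in 12-20 cells for Tbx21 by -6.13 and for Ifng by -6.99 (limma adjusted p = 0.000973 and 0.000758). Both genes were low or undetected in the lymph node wells of either class, and most lymph node mice differed in age from the blood samples. When each of the 10 mouse and tissue values was left out in turn, Tbx21 ranged from -6.53 to -5.73 and Ifng from -7.53 to -6.65, and 2 to 3 assays passed.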

How the results depend on the processing

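The 9 assays passing became 0 in matched pairs, 0 in 12-20 wells alone, 4 in 13-21 wells alone, 2 in the 7- and 8-week mice alone, and 4 to 11 when each mouse was left out (4 without the 7-week M3 or the 8-week M3, 5 without the 13-week M2). Ignoring calls gave 26, all higher, over another set of wells. Without the replicate block (no pairing by mouse) 7 passed, each also among the 9, and Nr4a1 and Ifngr1 did not. Il7r kept its direction and passed in 26 of 28 alternatives, Cxcr3 and Icos in 24 each and Cd3e in 22, but Bcl2 and Ctla4 in 17 each, Pdcd1 in 14, Nr4a1 in 13 and Ifngr1 in 6. The difference in other assays was -2.70 with at least 1 well of each class, -3.33 with at least 3, 8.10 with calls ignored and -7.46 in wells with Cd3e and Cd4. Between islets and lymph node, 5 passed after centring and 0 to 5 when each mouse was left out. Between tetramers and between ages, 0 passed with each mouse left out in turn.

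Directions turned mainly for genes that did not pass. They turned with at least 1 well of each class for Ccr2 (-0.0074) and Cd4 (0.23), with at least 3 for Tnf (-0.31), and by share of wells for Cd4 (1.37 percentage points). In matched pairs they turned for Ccr2 (-0.38), Ccr6 (-0.0688) and Cd4 (0.0662), and with mice weighted by wells for Ccr2 (-0.0021) and Cxcr4 (0.0367). Ignoring calls turned Ifngr1 (0.67), Cd28 (2.73), Irf4 (0.22), Bcl6 (0.19), Ccr2 (-0.34), Cxcr4 (2.77) and Cd4 (4.12). At least 25 assays turned Tnf (-0.73), Ccr2 (-0.85), Zap70 (-0.97) and Gapdh (-0.11). Leaving out mice gave Ccr2 from -0.21 to 0.59 and Cxcr4 from -1.03 to 0.50. In 12-20 wells Irf4 (0.0546), Cxcr4 (1.04) and Zap70 (-0.0677) turned, in 13-21 wells Tnf (-0.46), Bcl6 (0.0099), Ccr2 (-0.14) and Cd4 (0.066), in 7- and 8-week mice Ccr2 (-0.52), Cxcr4 (0.41), Zap70 (-0.21) and Gapdh (-0.0084), and in 13-week mice Irf4 (0.0632). In wells with Cd3e and Cd4, Cd3e (-0.34), Tnf (-1.05), Ccr2 (-1.40), Zap70 (-1.56) and Gapdh (-0.17) turned, and with the covariate there Ifngr1 (0.69), Tnf (-0.53), Bcl6 (0.0859), Ccr2 (-1.42), Cxcr4 (0.19), Cd4 (0.53) and Gapdh (-0.0228). The cause was not tested. Depth limits each value: a transcript present below the Ct limit counts as not detected, and 61 negative wells from 7 mice carry the contrast.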

Other observations

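Other genes outside the rule for naming had differences that did not pass the threshold. Socs3, an inhibitor of cytokine signalling, differed by 1.43 log2Ex (limma adjusted p = 0.0607) and Tgfbr2, a receptor for transforming growth factor beta, by 1.0 (0.106), both positive in 7 of 7 mice. Il4ra, a chain of the interleukin-4 receptor, differed by 1.64 (limma adjusted p = 0.0987) and Ifit3, an interferon-stimulated gene, by 1.55 (0.0829). Tnfrsf1b, a tumour necrosis factor receptor, differed by -2.12 (limma adjusted p = 0.0755) and was positive in 12 of the 16 Ccr7-negative wells without Cd3e.

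The interferon-stimulated assays were positive in many shallow wells. Among wells under 20 assays, Ifit3 was positive in 82%, Isg15 in 79.6%, Ifi44 in 74.3% and Cxcl10 in 71.9%. Of the negative wells without Cd3e, 7 of 16 had Ifit3, against 46 of 46 negative wells with Cd3e.

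Further wells of the series that were sorted under lettered names at 6 and 12 weeks, or from spleen, entered no comparison, since the lettered sorts name no mouse and spleen lies outside the wells chosen. In the lettered lymph node sorts, Il7r was positive in 6 of 9 Ccr7-detected and 3 of 9 Ccr7-negative wells, Icos in 4 and 7, Cxcr3 in 4 and 6, Ctla4 in 5 and 7, Pdcd1 in 3 and 6, Tbx21 in 2 and 2, Cd3e in 9 and 8 and Bcl2 in 6 and 7. In spleen, Il7r was positive in 4 of 10 and 0 of 17 wells, Cd3e in 10 and 3, Bcl2 in 9 and 6, Icos in 3 and 4, Cxcr3 in 2 and 3, Ctla4 in 1 and 2, Pdcd1 in 3 and 1 and Tbx21 in 0 and 0.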
